A study of Mus musculus with 10 samples.

Results

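The 10 genes described here, Gfap, Aqp4, Gja1, Slc1a2, Slc1a3, Glul, Aldoc, S100b, Apoe and Clu, are ones whose transcripts are used as markers of astrocytes. They were chosen by name, and every probe set that the platform annotation gives to 1 of them was taken, which made 25 probe sets of the 22626 tested (10 of 12393 genes). RNA was prepared from the cerebral cortex of 10 male mice, each at 6 months of age, and every mouse was measured on an array of its own (Affymetrix mouse 430A 2.0). By its label, each array belongs to *p97FE65* wild type (5 arrays) or *p97FE65* null (5 arrays), and the mice are described as littermate pairs. The null mice lack the full-length form of the adaptor protein FE65 (gene Apbb1), while later parts of the transcript are still made. The targeting was done in R1 embryonic stem cells, which come from a cross between substrains of an inbred strain other than C57Bl/6J. After injection into C57Bl/6J blastocysts, the line was crossed back to C57Bl/6J for 10 generations. Both groups are therefore largely C57Bl/6J, and the null mice keep some sequence of the other strain around FE65 on chromosome 7. All values are log2 expression values made with GC-RMA, in which a difference of 1 is a doubling of signal. They are comparable between arrays for the same probe set, and are not compared here between probe sets.

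Astrocytes are the glial cells that enclose synapses and blood vessels in the cortex. They clear glutamate and potassium released by neurons, return the glutamate as glutamine, pass water and small molecules through their membranes and shared junctions, and supply neurons with lipids in lipoprotein particles. After injury or in disease they can become reactive, with more intermediate filament and more secreted proteins. Several of the 10 genes are also made by other cells of the cortex, such as Apoe and Clu in microglia or neurons and Glul and S100b in some oligodendrocytes.

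On these arrays 22 of the 25 probe sets had a mean of at least 5 (log2) over the 10 arrays, and 3 were dimmer, the only probe set of Slc1a2 among them. Of other marker genes of astrocytes, Gjb6 and Fgfr3 had group means between 9.58 and 10.08, Slc4a4 between 8.15 and 8.35, Aldh1l1 at 5.40 and 5.41, and Sox9 at 3.70 and 3.60. The directions given below run by label. Under the labels, 14 of 15 genes listed by the study as higher or lower in null mice differed the other way. Gprc5b (probe set 1451411_at) was among them, with a difference of -1.23, taken like all others as the mean of the null label minus that of the wild type label. The genotype behind each label is therefore not settled from these arrays alone, and every group is named as labelled. A direction given by label may be the reverse of the direction by genotype. Apbb1 itself was read by probe sets outside the deleted exon, in a region that both transcripts hold, so that they do not check the deletion. Of the 2 probe sets, 1 was at 10.98 to 11.23 under the wild type label and at 11.30 to 11.51 under the null label (difference 0.26, exact permutation p = 0.00794), and the other differed by 0.11 (exact permutation p = 0.341). Both signs are again opposite to those the study lists for null mice. Arrays correlated with each other at 0.994 to 0.999 over all probe sets, and their medians lay between 3.01 and 3.14.

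No astrocyte probe set differed between the labelled groups after adjustment. By limma with Benjamini-Hochberg adjustment over all 22626 probe sets, 0 of the 25 passed 0.05, as did 0% of all probe sets, and the adjusted p of each was 0.999. At an unadjusted p under 0.05 there were 2, S100b lower and Clu higher on the arrays labelled null, while 3.67% of all probe sets passed (1.24% higher and 2.43% lower). This count of 2 rested on single arrays, since it was 4 when null replicate 5 was left out. It was 1 when null replicate 1 or 2 or wild type replicate 5 was left out, and 0 for null replicate 4 or wild type replicate 2, 3 or 4. The same comparison without limma's pooling of the spread between probe sets, with the same adjustment, made 0 adjusted and 1 unadjusted call among the 25, and 0 and 767 among all. The groups of 5 arrays were apart for 0 of the 25 probe sets and for 0.623% of all, so that this count does not set the 25 off from the rest. Of the differences, 11 were above 0 and 14 below, and the largest, that of S100b, was 1.19-fold. In 22 of the 25 probe sets the difference was within 0.2 of 0. The median difference was 0.01 over the 10 genes, each by its brightest probe set, and -0.0004 over all probe sets. Differences of opposite sign cancel in these medians. Regardless of sign, the median size was 0.14 over the 10 genes and 0.05 over all genes by their brightest probe set. These sizes by gene are not matched for signal. Of the 10 genes 1 had a mean under 5, while 7827 of all 22626 probe sets had a mean of at least 5. By probe set it was 0.11 over the 25, 0.05 over all and 0.08 over all with a mean of at least 5. The median 95% interval reached 0.25 to either side of the difference. In RNA of whole tissue, fewer cells of a type and less RNA per cell cannot be told apart.

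**Figure D1:**
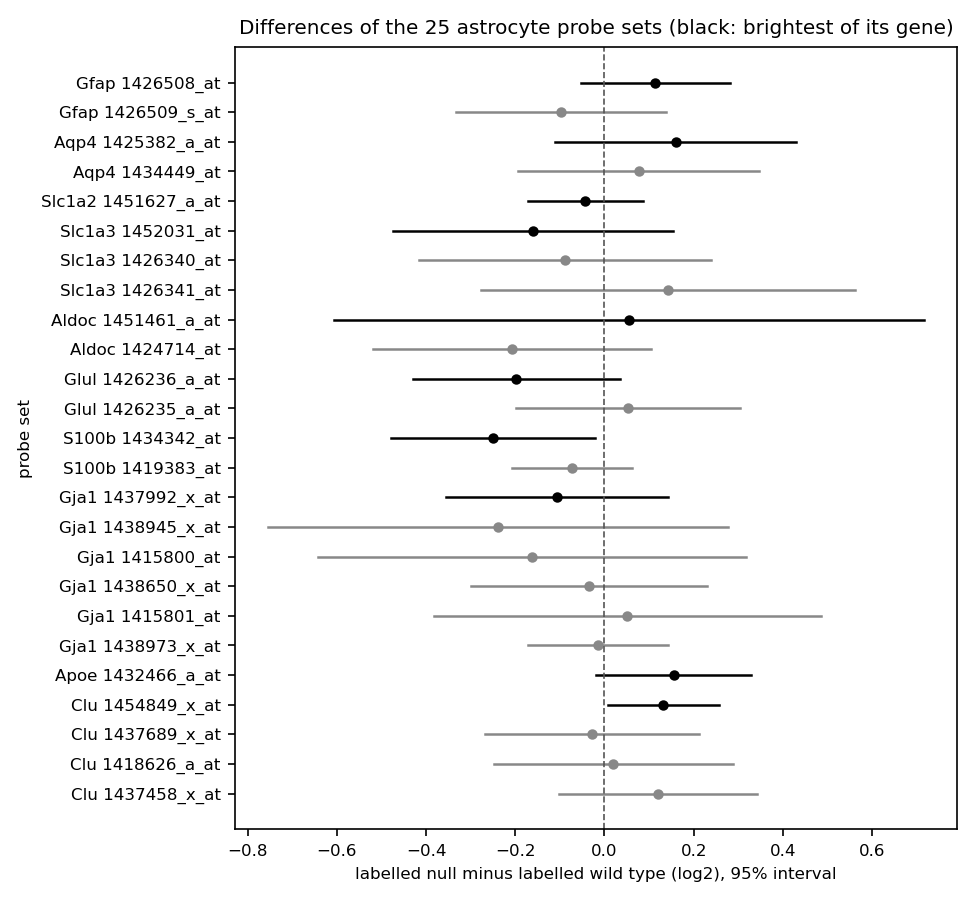
The 25 astrocyte probe sets (vertical axis) with the difference between labels, null minus wild type, in log2 units (horizontal axis). Points are the differences, lines the 95% intervals of the limma fit, and black marks the brightest probe set of each gene. The intervals of S100b 1434342_at (-0.48 to -0.02) and Clu 1454849_x_at (0.01 to 0.26) leave out 0, and the other 23 cover it.

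The promoters of 3 members are shown because they are the genes of the 2 pairs that passed the adjusted threshold by Pearson r between mice, as described further on. The RefSeq promoter table (GRCm38.p6), which holds 250 bases before to 50 after a start site, matched 8 of the 10 genes with 11 promoters, all genes but Aqp4 and Clu. Capitals mark matches, on either strand, to the TATA box (TATAAA), the CCAAT box (CCAAT), the GC box (GGGCGG), a SOX motif (AACAAT) or a STAT motif (TTCNNNGAA), and no matches overlapped.
Slc1a3 (chr15:8710758-8711057, minus strand): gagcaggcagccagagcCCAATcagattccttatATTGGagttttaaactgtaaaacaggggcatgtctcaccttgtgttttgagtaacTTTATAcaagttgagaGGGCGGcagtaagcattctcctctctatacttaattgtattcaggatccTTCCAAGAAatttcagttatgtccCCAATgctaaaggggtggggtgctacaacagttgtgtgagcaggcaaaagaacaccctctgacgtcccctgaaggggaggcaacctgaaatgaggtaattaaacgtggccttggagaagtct
S100b (chr10:76253586-76253885, plus strand): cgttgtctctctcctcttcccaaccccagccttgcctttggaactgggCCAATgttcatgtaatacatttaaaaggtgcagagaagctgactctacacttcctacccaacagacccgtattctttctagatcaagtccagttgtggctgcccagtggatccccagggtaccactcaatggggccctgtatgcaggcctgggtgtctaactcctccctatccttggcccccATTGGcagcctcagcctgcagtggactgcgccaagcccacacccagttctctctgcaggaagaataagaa
Gja1 (chr10:56377050-56377349, plus strand): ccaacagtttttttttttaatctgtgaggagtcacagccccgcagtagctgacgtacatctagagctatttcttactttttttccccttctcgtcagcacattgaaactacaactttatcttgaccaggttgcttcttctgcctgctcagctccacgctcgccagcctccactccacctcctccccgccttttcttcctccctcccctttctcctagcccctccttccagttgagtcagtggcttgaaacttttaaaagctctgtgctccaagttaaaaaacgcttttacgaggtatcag
The Slc1a3 promoter held 1 match to the TATA box letters at -161 from the start site, on the opposite strand. It also held 3 CCAAT matches at -233, -216 (opposite strand) and -72, 1 GC box match at -145 and 1 STAT match at -96. The S100b promoter held 2 CCAAT matches, at -202 and, on the opposite strand, at -20. The Gja1 promoter held no match to any of the motifs in this window. Matches on either strand were also counted among 32851 mouse promoters of the same length. Of these, 13.6% matched the TATA box, 37.4% the CCAAT box, 35.7% the GC box, 10.7% the SOX motif and 8.30% the STAT motif. No motif searched was present in all 3 promoters.

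Gfap encodes the intermediate filament protein of astrocytes and is the gene most used as a sign of reactive astrocytes. Its brightest probe set, 1426508_at, read 7.80, 7.76, 7.77, 7.82 and 7.69 on the arrays labelled wild type (replicates 1 to 5). On those labelled null it read 8.15, 7.73, 7.74, 7.90 and 7.88. Replicates 1, 4 and 5 labelled null lay above every array labelled wild type and replicates 2 and 3 within their range, and the spread was wider among the former (SD 0.17 against 0.05, n = 5 each). The difference was 0.11 (SE 0.075), with an exact permutation p of 0.175 (two-sided, as are all that follow, the smallest possible being 0.00794). Without null replicate 1 it was 0.05. The second probe set, 1426509_s_at, had a difference of -0.10.

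Aqp4, the water channel of astrocyte endfeet on blood vessels, was read by probe set 1425382_a_at at 9.21, 9.57, 9.32, 9.72 and 9.54 on the arrays labelled wild type. The arrays labelled null gave 9.60, 9.55, 9.39, 9.62 and 9.99. Replicate 5 labelled null was the highest of all 10 arrays, and the other 4 lay within the range of the arrays labelled wild type (difference 0.16, SE 0.12, exact permutation p = 0.270). The difference was 0.07 without null replicate 5 and 0.09 without wild type replicate 1. Its second probe set, 1434449_at, differed by 0.08 and was also highest on that array, at 9.52.

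Gja1 encodes the connexin that forms most of the gap junctions between astrocytes. Probe set 1437992_x_at read 11.24, 11.73, 11.58, 11.42 and 11.64 on the arrays labelled wild type. On the arrays labelled null the values were 11.21, 11.44, 11.40, 11.29 and 11.73. The groups covered nearly the same range, and the highest values came from wild type replicate 2 and null replicate 5 (difference -0.11, SE 0.11, exact permutation p = 0.405). Leaving out 1 array at a time gave -0.19 (null replicate 5) to -0.05 (wild type replicate 2). Of the other 5 probe sets of Gja1, 1438945_x_at differed by -0.24, 1415800_at by -0.16, 1438650_x_at by -0.03 and 1415801_at by 0.05. The dim probe set 1438973_x_at, with group means of 2.01 and 1.99, differed by -0.01. Probe sets whose names end in _x_at can take up signal from similar transcripts.

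Slc1a3 and Slc1a2 encode GLAST and GLT-1, the glutamate transporters by which astrocytes clear the synapse. Slc1a3 probe set 1452031_at read 10.10, 10.45, 10.72, 10.21 and 10.30 on the arrays labelled wild type. Those labelled null gave 10.05, 10.29, 10.02, 9.997 and 10.61. Replicates 1, 3 and 4 labelled null were below every array labelled wild type, while replicate 5 was above all but replicate 3 of that group. The difference was -0.16 (SE 0.14, exact permutation p = 0.325), and it was -0.07 when wild type replicate 3 was left out and -0.26 when null replicate 5 was. Probe set 1426340_at had a difference of -0.09. Probe set 1426341_at differed in the other direction, by 0.14 (exact permutation p = 0.540), with values of 6.38, 5.87, 6.79, 6.72 and 6.32 against 6.83, 6.20, 6.31, 6.87 and 6.58. That difference was 0.006 when wild type replicate 2 was left out and 0.24 when wild type replicate 3 was. The 3 Slc1a3 probe sets thus gave differences of both signs, none larger than the spread between mice. For Slc1a2 the only probe set, 1451627_a_at, was dim (mean under 5), at 4.43, 4.51, 4.58, 4.47 and 4.36 on arrays labelled wild type. It read 4.28, 4.44, 4.41, 4.47 and 4.54 on arrays labelled null. These ranges overlapped (difference -0.04, SE 0.06, exact permutation p = 0.468), and at this signal the probe set gives little information on the transporter.

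Glul encodes glutamine synthetase, which converts the glutamate taken up into glutamine. Probe set 1426236_a_at read 12.41, 12.86, 12.80, 12.70 and 12.76 on the arrays labelled wild type. On those labelled null it read 12.52, 12.27, 12.52, 12.45 and 12.79. Wild type replicate 1 was the low array of its group and null replicate 5 the high array of the other. The difference was -0.20 (SE 0.10, 95% interval -0.43 to 0.03), with an unadjusted limma p of 0.0869 and an exact permutation p of 0.143. The second probe set, 1426235_a_at, had a difference of 0.05. Other genes of glutamate and glutamine handling were read from a list of 16, of which 11 were measured. By limma 0 passed the adjusted test and 0 an unadjusted p under 0.05, which 3.94% of all genes passed by their brightest probe set (1.33% higher and 2.61% lower under the null label). The glutamine transporters Slc38a2 and Slc38a3 differed by -0.10 and -0.06, and the glutamate-aspartate transaminases Got2 and Got1 by -0.08 and 0.12. Of the 11 genes, 3 had a mean under 5, Slc38a3 among them with group means of 3.39 and 3.33.

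Aldoc encodes aldolase C, the brain form of a glycolytic enzyme, which in the forebrain is found mostly in astrocytes. Probe set 1451461_a_at read 13.31, 12.06, 13.25, 12.92 and 13.03 on the arrays labelled wild type. It read 13.21, 13.09, 13.18, 13.39 and 11.97 on those labelled null. A single array in each group, wild type replicate 2 and null replicate 5, lay about a whole log2 unit below the rest. Its pooled SD within groups, 0.54, was larger than that of 98.4% of the 7827 probe sets with a mean of at least 5, whose median was 0.18. The difference was 0.06 (SE 0.30, exact permutation p = 0.770), and its sign depended on single arrays, being -0.16 when wild type replicate 2 was left out and 0.30 when null replicate 5 was. The second probe set, 1424714_at, did not show the drop. Its values were 7.50, 7.89, 7.85, 7.83 and 8.03 against 7.27, 7.60, 7.47, 7.65 and 8.06, so that null replicate 5 was here the highest array of its group. Its difference was -0.21 (SE 0.14, exact permutation p = 0.206), with -0.32 when null replicate 5 was left out (unadjusted limma p of 0.0168) and -0.12 when null replicate 1 was. Between the 2 probe sets, the values of the arrays ran in opposite directions (r = -0.66).

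S100b encodes a calcium-binding protein of astrocytes that is also secreted. Probe set 1434342_at read 10.18, 10.53, 10.57, 10.41 and 10.40 on the arrays labelled wild type (mean 10.42, SD 0.15, n = 5). The arrays labelled null gave 9.96, 10.21, 10.18, 10.02 and 10.47 (mean 10.17, SD 0.20, n = 5). Replicates 1, 3 and 4 labelled null lay below every array labelled wild type, replicate 3 only narrowly, and replicate 5 labelled null lay among the high ones. The difference was -0.25 (SE 0.10, 95% interval -0.48 to -0.02), which is 1.19-fold higher on the arrays labelled wild type. Its unadjusted limma p was 0.0344, its Benjamini-Hochberg adjusted p 0.999 and its exact permutation p 0.0714. Leaving out 1 array at a time moved the difference between -0.33, without null replicate 5, and -0.20, without null replicate 1, with unadjusted limma p-values from 0.00412 to 0.0848. The second probe set, 1419383_at, was dim, with group means of 3.25 and 3.17.

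Markers of other cells were set beside this difference. Of 11 measured oligodendrocyte markers, 3 were lower at an unadjusted p under 0.05 and none higher, against 2.61% of all genes lower and 1.33% higher at that threshold. These were Mbp, of myelin, at -0.23, Olig2, a lineage factor, at -0.18 and Cldn11, the claudin of myelin, at -0.52. Olig2 was dim, with group means of 3.58 and 3.40. Mbp was at 13.87 to 14.20 under the wild type label and at 13.73 to 13.87 under the null label, narrowly without overlap (exact permutation p = 0.00794), as were 0.623% of all probe sets. The mean level of the 11 markers, of which 4 had a mean under 5, was 7.19 to 7.58 under the wild type label. It was 6.99 to 7.35 under the null label (exact permutation p = 0.111). Of 9 neuron markers 3 were lower and none higher, again against 2.61% and 1.33% of all genes. Rbfox3 at -0.37, dim with group means of 4.34 and 3.98, and Nefl at -0.20 had the smallest p. The mean level of the 9 neuron markers was 9.20 to 9.56 under the wild type label. It was 9.01 to 9.46 under the null label (exact permutation p = 0.484). None of these markers of oligodendrocytes or neurons passed the adjusted test, and their part in the values of S100b was not tested. Of 10 microglia markers none passed in either direction (Tyrobp 0.20, Cx3cr1 -0.20), and their mean level was 4.83 to 5.03 against 4.83 to 5.06.

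Apoe encodes apolipoprotein E, the main carrier of cholesterol made by astrocytes. Its probe set 1432466_a_at read 13.00, 12.81, 12.97, 13.03 and 12.88 on the arrays labelled wild type. On those labelled null it read 13.28, 13.08, 12.84, 13.16 and 13.11. All null arrays but replicate 3 lay above every array labelled wild type. The difference was 0.15 (SE 0.079, 95% interval -0.02 to 0.33), with an unadjusted limma p of 0.0759 and an exact permutation p of 0.103. Apoe is the only member on chromosome 7, where it is the 140th of 958 measured genes in the order of GRCm38.p6, while Apbb1 is the 648th and Gprc5b the 711th. Whether the retained sequence reaches Apoe was not tested.

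Clu encodes clusterin, a secreted chaperone that also travels with lipoproteins. Probe set 1454849_x_at read 11.13, 11.14, 11.08, 11.11 and 11.22 on the arrays labelled wild type (mean 11.14, SD 0.05, n = 5). The arrays labelled null gave 11.12, 11.35, 11.24, 11.40 and 11.24 (mean 11.27, SD 0.11, n = 5). Null replicate 1 lay among the arrays labelled wild type and the other 4 above all of them. The difference was 0.13 (SE 0.056, 95% interval 0.01 to 0.26) or 1.10-fold, with an unadjusted limma p of 0.0391, a Benjamini-Hochberg adjusted p of 0.999 and an exact permutation p of 0.0476. The other 3 Clu probe sets gave differences of 0.12 (1437458_x_at), 0.02 (1418626_a_at) and -0.03 (1437689_x_at). Of these, 1437689_x_at was nearly as bright as 1454849_x_at, with means over all arrays of 11.18 and 11.20. Between mice this pair had r = -0.07. Of 15 other measured genes of lipoprotein handling, 1 was lower and none higher at an unadjusted p under 0.05, against 2.61% lower and 1.33% higher of all genes. This was Pltp, the phospholipid transfer protein, at -0.51 (SE 0.18, exact permutation p = 0.0317). Apod, a lipocalin of glia, differed by 0.20, and the receptors Lrp8 and Lrp1 by 0.12 and -0.18. Of the 15 genes, 8 had a mean under 5, Lrp8 among them with group means of 1.99 and 2.11.

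**Figure D2:**
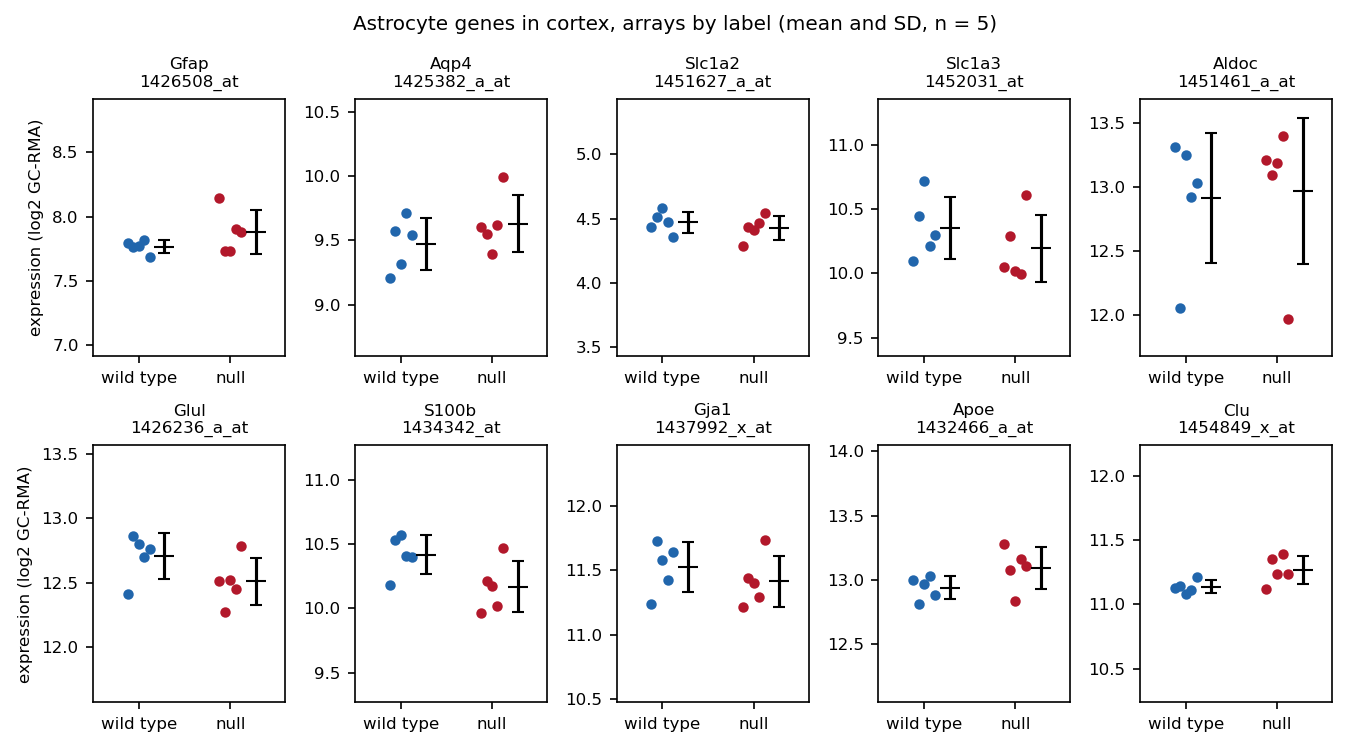
Expression of the 10 genes by their brightest probe set (vertical axis, log2 GC-RMA, each panel spanning 2 log2 units) on the arrays labelled wild type (blue) and null (red). Points are arrays, that is mice, in the order of replicates 1 to 5, and bars are the mean and SD of 5. The groups overlap in every panel, and the Aldoc panel shows the low arrays at 12.06 (wild type replicate 2) and 11.97 (null replicate 5).

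Astrocyte genes beyond the 10 were also read. Of a list of 45 other genes of astrocytes, 38 were measured, 0 passed the adjusted limma test, and 2 were lower and none higher at an unadjusted p under 0.05, which 2.61% of all genes passed as lower and 1.33% as higher. These were Mt3, a brain metallothionein, at -0.80 (SE 0.30, exact permutation p = 0.0556), and Slc4a4, the sodium bicarbonate cotransporter, at -0.20 (SE 0.081, exact permutation p = 0.0476). The range of Mt3 was 9.78 to 11.16 under the wild type label and 9.04 to 10.37 under the null label. The related Mt1 and Mt2 differed by 0.06 and -0.09. Of the other genes named by rank, Itih3, of the extracellular matrix, had a difference of 0.23 and the receptor Fgfr3 one of -0.15. Of the 38 genes, 10 had a mean under 5, Itih3 among them with group means of 4.23 and 4.46. The median over the list was 0.003, with 19 genes on each side of 0.

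Genes of reactive astrocytes were mostly dim. Of 37 listed, 32 were measured and 27 of these had a mean under 5. At an unadjusted p under 0.05, 1 was higher and none lower, against 1.33% and 2.61% of all genes, and 0 passed the adjusted limma test. It was Sphk1, a sphingosine kinase, at 0.18 (SE 0.070, exact permutation p = 0.0556), with group means of 3.56 and 3.74. The MHC gene H2-D1 differed by -0.22, Fkbp5 by 0.12 and Tnc by 0.06. Vim, the other intermediate filament of reactive astrocytes, had a difference of -0.34 (SE 0.31), and Serpina3n and Lcn2 were dim in both groups with differences of -0.01 and 0.01. Of 14 measured genes of water channel anchoring and gap junctions, none passed an unadjusted p under 0.05. Dmd, whose short product anchors Aqp4, had the smallest p at a difference of -0.40 (SE 0.25). It was followed by Tjp1 at -0.17, Gja5 at -0.04 and the potassium channel Kcnj10 at -0.06. Of these 14 genes, 5 had a mean under 5, Gja5 among them with group means of 1.24 and 1.19. The mean of the 10 members on an array, by their brightest probe sets, was 10.28 to 10.46 for arrays labelled wild type and 10.29 to 10.43 for those labelled null (difference -0.01, exact permutation p = 0.714).

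Between mice, some members varied together. Correlations were computed over the 10 arrays after subtracting each group's mean, with p from all rearrangements of values within the labelled groups. Of the 45 pairs of genes, 2 passed a Benjamini-Hochberg adjusted p of 0.05. Pairs of other genes were not tested, so this count cannot show whether such correlation is particular to astrocyte genes. S100b and Gja1 had r = 0.914 (exact permutation p = 0.00187, adjusted 0.0422), and Slc1a3 and S100b had r = 0.893 (exact permutation p = 0.000625, adjusted 0.0281). By rank their rho was 0.855 (exact permutation p = 0.00479) and 0.842 (exact permutation p = 0.00715), each with an adjusted p of 0.0844, so that neither passed by rank. Without the pair of arrays farthest from the median, r was 0.795 and 0.790. The third pair of these genes, Slc1a3 and Gja1, had r = 0.786 (exact permutation p = 0.0138, adjusted 0.155; rho = 0.818). These are the genes whose promoters are shown above.

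Gfap and Apoe had r = 0.782 (exact permutation p = 0.0438, adjusted 0.197) and rho = 0.903 (exact permutation p = 0.00243, adjusted 0.0844), and r was 0.880 without the farthest arrays. Gfap had negative r with S100b (-0.40) and Gja1 (-0.42), neither near the threshold. The most negative pair was Aldoc and Gja1 (r = -0.80, exact permutation p = 0.00868, adjusted 0.130), for which r was -0.43 without wild type replicate 2 and null replicate 5. The median r of all 45 pairs was 0.10, with 25 pairs above 0 and 20 below. Across mice the 10 markers thus formed pairs of either sign.

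**Figure D3:**
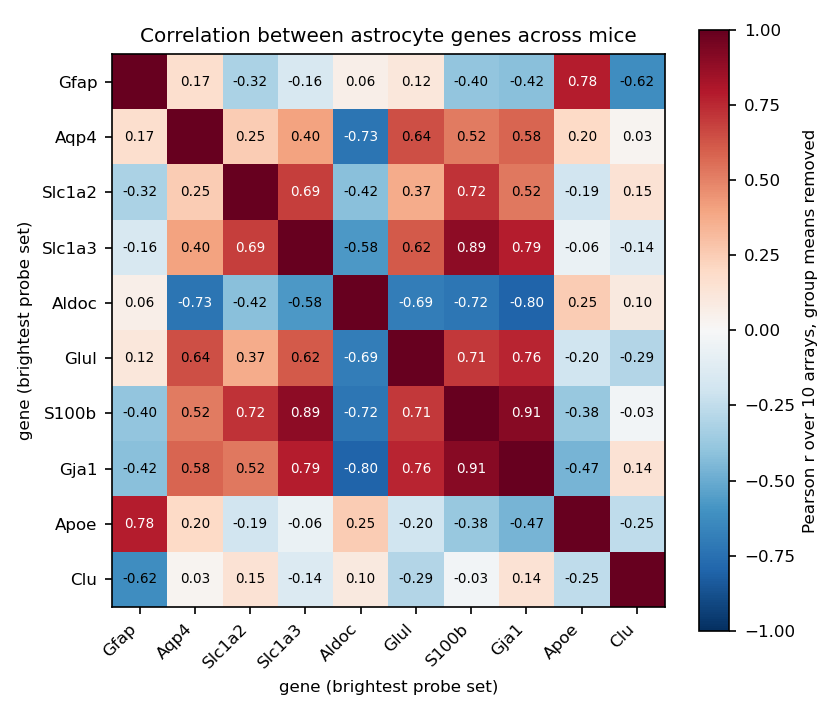
Pearson r between the brightest probe sets of the 10 astrocyte genes (both axes) over 10 arrays with group means removed, from -1 (blue) to 1 (red). S100b, Gja1 and Slc1a3 have r of 0.79 to 0.91 with each other, Aldoc has negative r with 6 of the other 9 genes, and Gfap and Apoe have r = 0.78.

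How far probe sets of the same gene went together differed between genes. Of 29 such pairs, none passed the adjusted threshold, and r ranged from -0.66 for Aldoc to 0.879 for Gja1 1437992_x_at and 1438945_x_at (exact permutation p = 0.00396, adjusted 0.0544). Of the 29 pairs, 18 had r above 0 and 11 below, with a median of 0.32. The pair of Aqp4 had r = 0.793 (exact permutation p = 0.0122, adjusted 0.0587), that of Glul -0.07 and that of S100b, of which 1 is dim, -0.13. Of the 6 Gja1 probe sets, 4 had r of 0.719 to 0.879 with each other, and 1415801_at had negative r with each of them.

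The arrays differed among themselves along an axis that cut across the labels. The first principal component of the 7805 probe sets of other genes with a mean of at least 5 held 44.8% of their variance. Wild type replicate 2 (22.7) and null replicate 5 (17.2) lay highest on it, and wild type replicate 1 (-14.9) and null replicates 1 (-17.1) and 4 (-17.0) lowest. Its group means, 4.43 for labelled wild type and -4.43 for labelled null, did not differ beyond the spread (exact permutation p = 0.341). Of the 25 astrocyte probe sets, 6 were correlated with it at a Benjamini-Hochberg adjusted p under 0.05. Those with positive r were S100b 1434342_at and Gja1 1437992_x_at, 1438945_x_at, 1415800_at and 1438650_x_at.

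S100b 1434342_at had r = 0.935 (exact permutation p = 0.0016, adjusted 0.0133) and rho = 0.939 (exact permutation p = 0.000972, adjusted 0.0122), and r stayed at 0.941 without wild type replicate 2 and null replicate 5. The Gja1 probe sets had r of 0.888 to 0.941, and 1438945_x_at, the highest, had rho = 0.927 (adjusted exact permutation p = 0.0122) and r = 0.856 without those arrays. Aldoc 1451461_a_at alone was negative, at r = -0.87 (exact permutation p = 0.00493, adjusted 0.0205) and rho = -0.68 (exact permutation p = 0.0453, adjusted 0.142), and r was -0.55 without those arrays. A size of r over 0.8 was reached by these 6 of 25 probe sets and by 19.3% of the other genes' probe sets, and the median size of r was 0.536 and 0.540. With the component as a covariate, the S100b difference was -0.14 (SE 0.052, limma adjusted p = 0.999), and without wild type replicate 2 and null replicate 5 together it was -0.30 (SE 0.091, limma adjusted p = 0.694). What part the component has in the correlations between S100b, Slc1a3 and Gja1 was not tested.

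**Figure D4:**
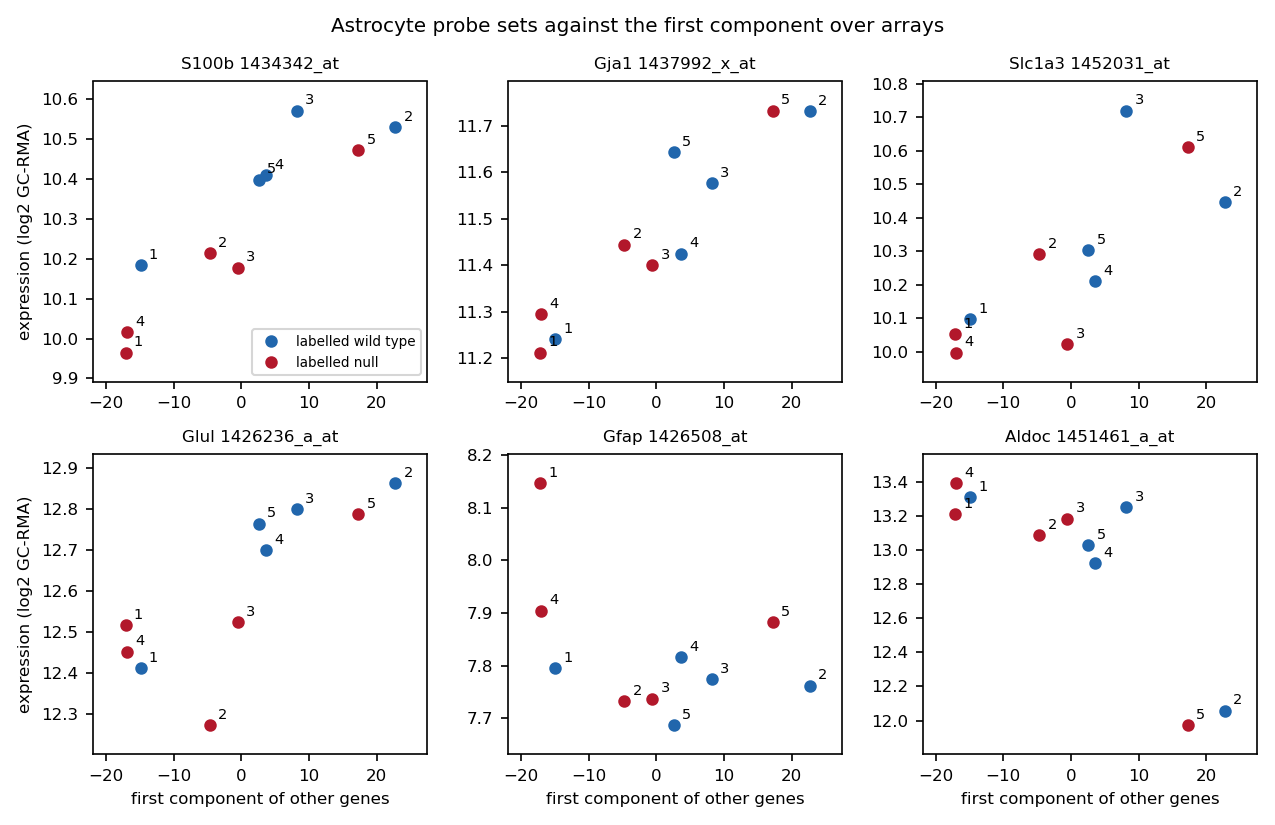
Expression of 6 astrocyte probe sets (vertical axes, log2 GC-RMA) against the position of each array on the first principal component of other genes' probe sets (horizontal axis, arbitrary units). Each point is 1 array, blue labelled wild type and red labelled null, with its replicate number. S100b and Gja1 climb along the component, Gfap does not, and Aldoc is low on wild type replicate 2 (12.06) and null replicate 5 (11.97).

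The mean of the 10 genes, each centred within groups and scaled to unit SD, was highest on null replicate 5 (0.78) and wild type replicate 3 (0.41) and lowest on wild type replicate 1 (-0.61) and null replicate 3 (-0.53). The probe sets of other genes most like this mean over the 10 arrays were those of Ufd1 (r = 0.966), Syt11 (0.958), Zfand1 (0.944), Armc1 (0.933) and Nol11 (0.931). These were picked as the highest of all other genes with a mean of at least 5. Their r to the first component lay between 0.520 (Syt11) and 0.855 (Armc1), where the median size of r over other genes' probe sets was 0.540. What part the component has in this likeness was not tested.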

How the data were processed

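The deposited values are log2 expression values, made by the authors from Affymetrix 430A 2.0 arrays with GC-RMA (background adjusted by probe GC content, normalized between arrays, probes summarised per probe set). The sources used here name no version. The number of arrays limits the precision. Of 22690 probe sets, 64 controls were left out and 22626 tested. The platform annotation gave 1 gene for 20380, several for 691 and none for 1555, and 20351 of the first were matched to GRCm38.p6. Arrays were grouped by label. The difference between labels (null minus wild type) was estimated with limma 3.58.1 in R 4.3.3 (lmFit, eBayes, no block), with Benjamini-Hochberg adjustment over all probe sets and a threshold of 0.05. The fit was tested on simulated data. For single values, the exact permutation test of the mean difference was used. A gene was represented by its brightest probe set. The limma p-values weigh a difference against the spread between these mice, which limma partly pools over probe sets. The exact permutation p-values come from rearranging the values of these mice.

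The genes and lists were chosen with earlier results of these data known. Values per array are given for each gene's brightest probe set, and for others with an unadjusted p under 0.05 or an opposite sign at a size over 0.1. From each list up to 4 genes with the smallest p are named, or 2 for markers of other cells, and the other genes named (Gjb6, Aldh1l1, Sox9, Mt1, Mt2, Vim, Serpina3n, Lcn2, Cldn11, Ptgds, Tac1) were picked after their values were seen. Alternatives were the replicate block, median centring, quantile normalization, removing probe sets of mean under 5, the 2-tailed t-test that the study's statistics section gives in general (for its arrays it names false discovery rates as q-values, for which Benjamini-Hochberg stands here), an intensity trend with a robust prior, the mean of all probe sets of a gene, and leaving out each array. The first component as a covariate, leaving out its 2 highest arrays, and the correlations of probe sets with it and within genes were chosen after seeing the data.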

Additional observations from a re-analysis of the deposited data

Results flagged for a closer look

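In 3 of the 50 groups of 5 arrays examined (25 probe sets, each label apart), 1 array lay far from the others of its group by Dixon's test, and chance alone gives about 1 in 20 groups. Aldoc 1451461_a_at was lowest on null replicate 5, at 11.97, with the next array of that group at 13.1. Gfap 1426509_s_at was highest on wild type replicate 2, at 5.32, with the next at 5.08. The dim Gja1 1438973_x_at was highest on the same array, at 2.26, with the next at 1.97. Both arrays are those highest on the first component.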

How the results depend on the processing

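The count of astrocyte probe sets past an adjusted p of 0.05 was 0 under all 18 alternatives, and the median difference of the 10 genes lay between -0.05 and 0.06. At an unadjusted p under 0.05, the 2 astrocyte probe sets became 1 with the first component as a covariate, with the intensity trend, with the methods' t-test and without dim probe sets, and 4 with quantile normalization. The 2 other astrocyte genes became 5 with the first component and 1 with the intensity trend or without dim probe sets. The 1 reactive gene became 0 with the first component or without dim probe sets, 2 with quantile normalization or the t-test, and 3 without the 2 arrays highest on the component. Leaving out each array gave 0 to 4 for the first count (0 without null replicate 4, 4 without null replicate 5), 1 to 4 for the second (1 without null replicate 2 or wild type replicate 4, 4 without wild type replicates 1 or 5) and 0 to 3 for the third (null replicate 4 gave the 0, null replicate 5 the 3, and both null replicate 1 and wild type replicate 2 gave 2).

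Of 215 alternative values for the 12 probe sets given by array, 210 kept their sign and 5 reversed. Aldoc 1451461_a_at went to -0.24 with the first component, -0.004 without null replicate 1, -0.05 without null replicate 4 and -0.16 without wild type replicate 2 (the range over left-out arrays was -0.16 to 0.30, without null replicate 5), and Gja1 1437992_x_at to 0.010 with the first component. The cause was not tested. Slc1a2 has no value without dim probe sets. The S100b difference had an unadjusted limma p under 0.05 in 10 of 18 alternatives and that of Clu in 7.

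Same-numbered arrays of the groups deviated together with r of 0.535, 0.066, 0.105, 0.217 and 0.101 over 7827 probe sets, and in 1 of 5 cases the own number was the best partner, so the numbers were not taken as pairs. With the replicate number as a block, 2 astrocyte probe sets, 4 other astrocyte genes and 1 reactive gene had an unadjusted p under 0.05. The 2 were not those of the fit without the block. They were S100b 1434342_at (unadjusted limma p of 0.0164) and Aldoc 1424714_at (0.0182), with Clu 1454849_x_at at 0.0580. Signal limits Slc1a2, S100b 1419383_at, Gja1 1438973_x_at and most reactive genes, whose means are under 5. The same limit holds for part of each of the other lists, as counted where they are described.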

Other observations

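Markers of vessels, of tissue next to the cortex and of blood were read in the same way. At an unadjusted limma p under 0.05, 2.61% of all genes were lower by their brightest probe set and 1.33% higher. Of 9 measured endothelial markers, 1 was lower at that threshold and none higher, Egfl7 at -0.20, with Cdh5 at -0.07. Of 7 measured markers of choroid plexus and ependyma none passed (Folr1 0.07, Rsph1 -0.05), nor did any of 8 for meninges and fibroblasts (Dcn 0.11, Col1a1 0.04), 5 for striatum, all with differences below 0 (Ppp1r1b -0.31, Penk -0.27), or 3 for red blood cells (Hbb-b2 -0.11, Hba-a1 -0.04). No gene of these lists passed the adjusted test. Most were dim, so that their differences give little information. A mean under 5 was found for 6 of the 9 endothelial markers and 6 of the 7 for choroid plexus and ependyma. The same held for 7 of the 8 for meninges and fibroblasts, 2 of the 5 for striatum and all 3 for red blood cells. Among those not dim, Ptgds had group means of 12.84 and 12.85 and Tac1 of 7.30 and 7.22.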
